A study of Mus musculus with 2 samples.

Results

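Glycosyltransferases and carbohydrate sulfotransferases build the sugar chains of the cell surface, and the genes described here are the members of these families in TEa CD4 T cells. They were chosen by symbol alone, as protein-coding genes of the sialyltransferase families (St3gal, St6gal with St6galnac, St8sia), the Galnt and Gcnt families, the Mgat, Man1a and Man2a families, the B3gal, B3gnt and B4gal families, the numbered Fut genes, Ext and Extl, and the sulfotransferases Chst, Hs2st, Hs3st and Hs6st. The rule found 122 of 35275 genes in the table, with Galntl6 listed on 2 rows. TEa cells are C57BL/6 T cells with a transgenic receptor for an I-E alpha peptide of BALB/c. The exhausted library came from TEa cells transferred into CB6F1 mice, whose own cells inherit that antigen. The effector library came from TEa cells transferred into WT C57BL/6 mice that carried a Balb/c skin transplant. Both were sorted from spleen, and the names of the groups are the submitters' titles. The comparison is one of abundant with moderate antigen. Antigen amount, recipient strain and skin graft differ together between the groups and cannot be told apart. Each group had 1 library, so folds describe this pair of libraries, with intervals for counting error alone and no replicate check. The number of mice behind each library and the time after transfer are not stated.

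Sugar chains are assembled in the Golgi in steps. N-glycans are trimmed by mannosidases and branched by Mgat enzymes, and O-glycans of the mucin type are started by Galnt enzymes, which put N-acetylgalactosamine (GalNAc) on serine or threonine. Both are extended with galactose and N-acetylglucosamine (GlcNAc) and then capped with sialic acid or fucose. Glycosaminoglycans such as heparan sulfate and chondroitin sulfate are long chains on proteoglycans that receive sulfate from sulfotransferases. In T cells these steps are known to set binding to selectins, galectins and siglecs, and core 1 sialylation and core 2 branching differ between naive and activated cells.

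The libraries held 8508129 reads in exhausted and 7844445 in effector cells. The 122 genes took 34730 of the exhausted reads and 37269 of the effector reads, 0.408% and 0.475% of all reads. CD4 T cell markers were abundant, with Cd4 at 15463 exhausted and 9272 effector reads and Cd3e at 11432 and 7624. Trac, the constant gene of the T cell receptor alpha chain, was lower in the exhausted library, with 11561 against 22526 reads (2.11-fold), and Lck had 15321 exhausted and 18053 effector reads and was not called. The B cell list summed to 23 reads in exhausted and 23 in effector cells, with Ms4a1 at 0 in both. The 33 markers of all other cell types summed to 4186 exhausted and 2939 effector reads, of which Pecam1, an adhesion receptor gene also expressed in T cells, gave 3198 and 2093. Of these markers, 9 were at 0 reads in the exhausted and 7 in the effector library. Itgam (183 against 22 reads) and Klrb1c (229 against 36) were higher in the exhausted library, and Hba-a1 (6 against 50), Igj (20 against 47) and Cd8b1 (81 against 164, with Cd8a at 0 in both) were lower. In the same myeloid and NK lists, Lyz2 (10 against 37), Csf1r (4 against 18) and Klrc1 (1 against 24) had fewer exhausted reads. Each was under 50 reads over both libraries and was not called. Cst3, of the myeloid list, had 375 exhausted and 305 effector reads and was not called. The part of these markers in the results was not tested.

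Of the 122 genes, 59 were measured, which means at least 50 reads over both libraries. A further 25 had fewer reads and 38 were at 0 in both libraries, a count that allows a level of up to 3 reads per library. Because a gene could pass this minimum through 1 library alone, the measured genes are not a picture of the whole family. A gene is called when its exhausted to effector ratio of TMM-scaled counts is at least 2-fold and the exact 95% counting interval excludes equality. By this rule 8 of the 59 were higher, 9 were lower and 42 were neither. Over all 9999 measured genes the rule called 6.65% higher and 7.07% lower, 13.7% together, against 28.8% of the 59. The median log2 ratio of the 59 was -0.14, and their median absolute log2 ratio was 0.52, against -0.0019 and 0.32 over all measured genes. In bulk RNA, fewer cells that express a gene and less RNA per cell cannot be told apart.

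**Figure D1:**
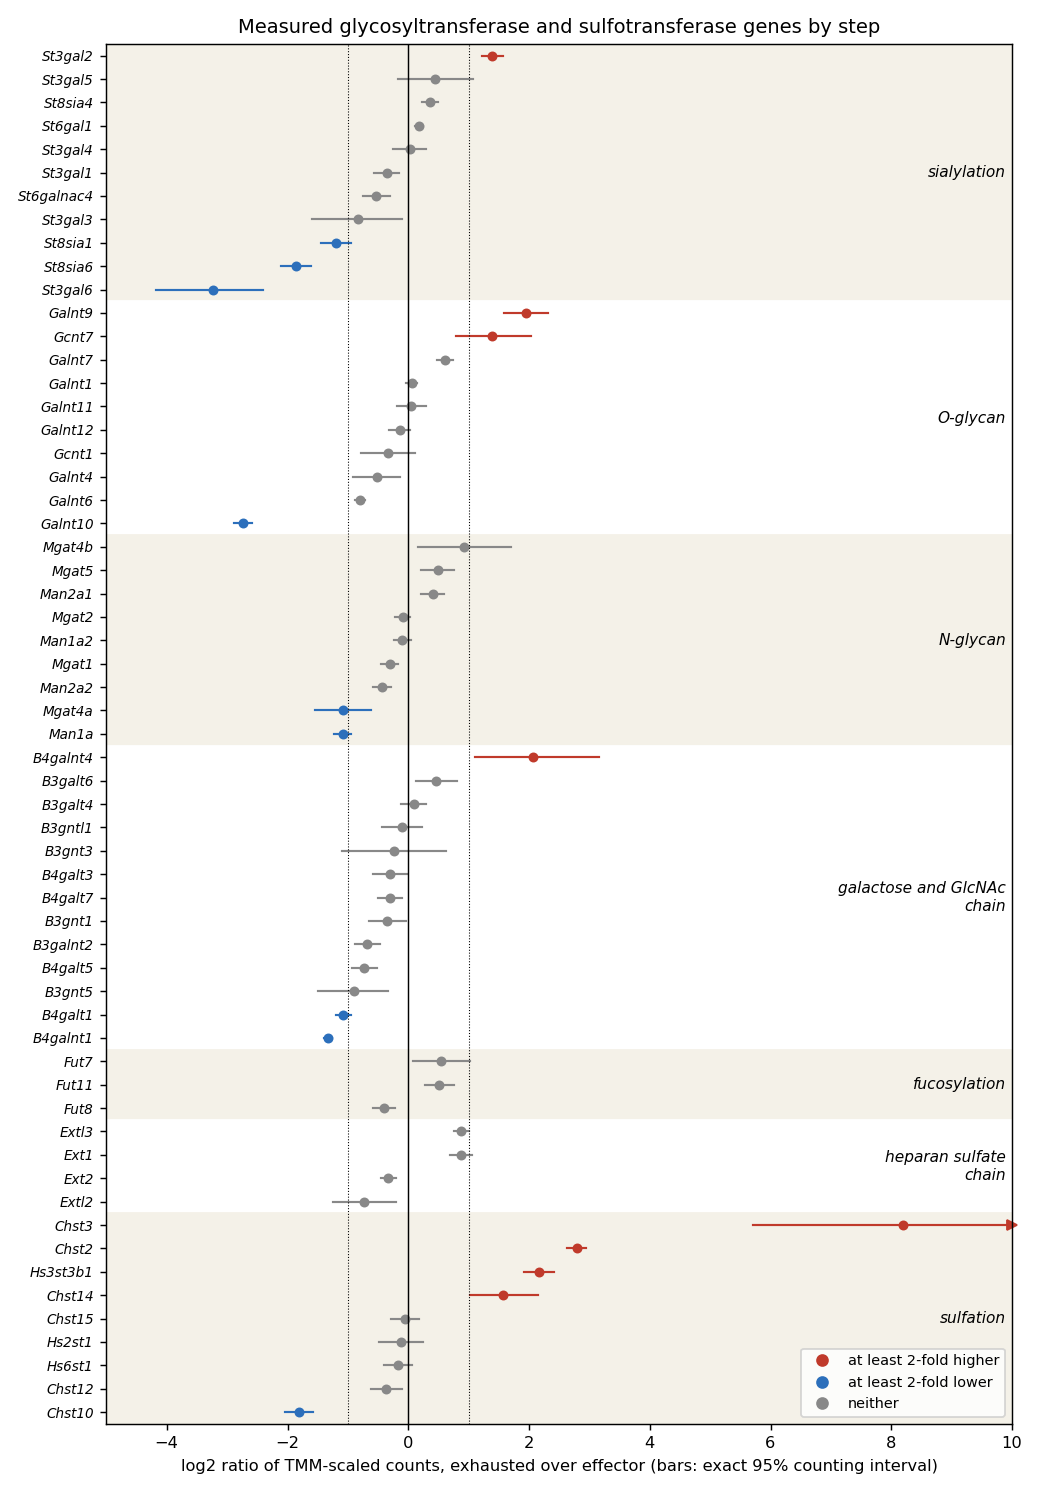
Log2 ratio of TMM-scaled counts, exhausted over effector, for the 59 measured genes grouped by step. Points are ratios, bars are exact 95% counting intervals and dotted lines mark 2-fold. Chst3, with 1 effector read, has an interval that runs beyond the axis. The 8 higher genes lie to the right of the dotted line and the 9 lower genes to the left, and sulfation holds 4 of the higher ones.

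Each step had few measured genes, and its calls stand beside 6.65% higher and 7.07% lower over all measured genes. Sulfation had 4 of 9 measured genes higher and 1 lower, and its summed reads, 5219 in exhausted and 2281 in effector cells, gave a ratio of 2.12 (2.01 to 2.22). That sum rested on Chst2, without which it was 1.19-fold (2474 against 1914 reads, 1.13 to 1.27). The median log2 ratio of the step was -0.06 and its mean 1.36. Sialylation had 1 of 11 higher and 3 lower, with nearly equal sums of 7475 exhausted and 6630 effector reads (1.04-fold, 1.01 to 1.08). O-glycan genes had 2 of 10 higher and 1 lower, and their sum was 1.42-fold lower in the exhausted library (7134 against 9354 reads, 1.38 to 1.46). Most of that gap was Galnt10, without which the sum was 1.10-fold lower. N-glycan genes had none of 9 higher and 2 lower, with a sum 1.22-fold lower (4976 against 5608 reads). Genes placed by symbol in the group that adds galactose, GalNAc or GlcNAc to growing chains had 1 of 13 higher and 2 lower. Their sum of 5674 exhausted against 10177 effector reads was 1.94-fold lower (1.878 to 2.005). Without B4galnt1 that sum was 1.44-fold lower. None of 3 fucosylation genes and none of 4 heparan sulfate chain genes was called. With 13.7% called over all measured genes, no call among so few is not a result about these steps. The median log2 ratios were -0.36 for sialylation, -0.05 for O-glycan, -0.10 for N-glycan, -0.30 for chain extension, 0.52 for fucosylation and 0.27 for heparan sulfate chain genes. Median and sum thus differed in sign for sulfation, sialylation and fucosylation. The fucosylation genes summed to 924 exhausted and 867 effector reads, a ratio of 0.985 whose interval includes equality (0.897 to 1.08).

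**Figure D2:**
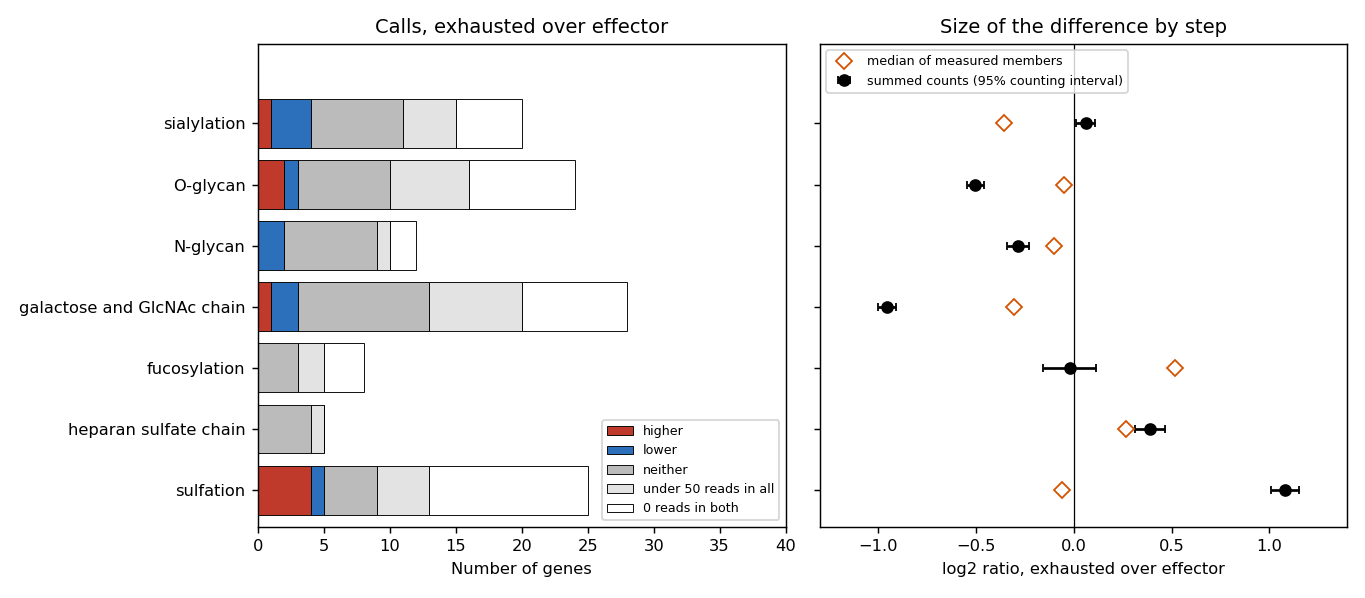
Left, the number of genes of each step that were higher, lower, neither, under the 50-read minimum or without reads. Right, log2 ratio of summed counts with its exact 95% counting interval (black points) and median log2 ratio of measured genes (open diamonds). Sulfation has a sum at 1.08 on the log2 scale and a median of -0.06, and Chst2 holds 52.6% of its exhausted reads.

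Promoters are shown for the 3 genes with the highest and the 3 with the lowest ratios among those called, so that the start regions of genes that moved in opposite directions can be read side by side. Each window runs from 250 bases before to 50 bases after a RefSeq start site on GRCm38.p6, the mm10 build, 5′ to 3′ on the gene's own strand, and capitals mark the motifs listed below. The first 3 belong to genes that were higher and the last 3 to genes that were lower in the exhausted library.
Chst3 promoter, chr10:60219211-60219510, minus strand: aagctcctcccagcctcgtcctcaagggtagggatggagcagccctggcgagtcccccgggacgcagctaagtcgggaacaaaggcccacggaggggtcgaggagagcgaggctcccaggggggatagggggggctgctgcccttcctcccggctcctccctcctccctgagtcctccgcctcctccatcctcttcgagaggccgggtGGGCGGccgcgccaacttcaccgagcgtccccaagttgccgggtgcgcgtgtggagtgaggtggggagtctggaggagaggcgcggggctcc
Chst2 promoter, chr9:95407221-95407520, minus strand: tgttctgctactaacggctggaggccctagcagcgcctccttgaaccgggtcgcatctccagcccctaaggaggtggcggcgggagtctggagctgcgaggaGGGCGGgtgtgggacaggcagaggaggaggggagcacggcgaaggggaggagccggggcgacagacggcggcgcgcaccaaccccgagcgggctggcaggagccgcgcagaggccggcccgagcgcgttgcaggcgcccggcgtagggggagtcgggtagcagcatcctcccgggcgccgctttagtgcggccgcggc
Hs3st3b1 promoter, chr11:63922235-63922534, minus strand: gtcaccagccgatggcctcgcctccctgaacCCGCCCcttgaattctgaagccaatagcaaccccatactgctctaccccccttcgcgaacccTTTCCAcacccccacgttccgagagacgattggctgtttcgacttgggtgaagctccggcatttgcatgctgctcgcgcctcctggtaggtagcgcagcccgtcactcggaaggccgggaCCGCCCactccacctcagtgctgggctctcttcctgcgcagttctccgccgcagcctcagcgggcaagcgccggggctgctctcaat
St3gal6 promoter, chr16:58524204-58524503, minus strand: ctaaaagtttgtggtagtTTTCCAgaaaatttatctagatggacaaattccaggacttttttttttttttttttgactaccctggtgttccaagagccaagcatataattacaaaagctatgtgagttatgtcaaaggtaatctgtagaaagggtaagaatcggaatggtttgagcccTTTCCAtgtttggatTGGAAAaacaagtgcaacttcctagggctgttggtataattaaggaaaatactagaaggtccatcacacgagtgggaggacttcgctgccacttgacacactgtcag
Galnt10 promoter, chr11:57645192-57645491, plus strand: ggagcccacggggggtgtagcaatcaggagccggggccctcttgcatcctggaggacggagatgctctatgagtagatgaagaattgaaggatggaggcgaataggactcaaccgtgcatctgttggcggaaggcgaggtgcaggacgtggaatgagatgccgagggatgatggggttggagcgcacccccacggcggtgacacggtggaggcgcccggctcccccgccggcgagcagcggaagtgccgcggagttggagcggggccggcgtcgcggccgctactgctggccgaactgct
St8sia6 promoter, chr2:13793471-13793770, minus strand: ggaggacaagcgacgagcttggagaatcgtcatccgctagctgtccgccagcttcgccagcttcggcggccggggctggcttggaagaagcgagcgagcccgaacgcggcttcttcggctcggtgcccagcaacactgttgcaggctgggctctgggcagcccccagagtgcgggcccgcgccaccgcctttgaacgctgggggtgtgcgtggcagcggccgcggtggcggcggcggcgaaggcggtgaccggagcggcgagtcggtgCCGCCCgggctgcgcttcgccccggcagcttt

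A search of both strands covered the GC box GGGCGG, the TATA box TATAAA, the AP-1 element TGANTCA, the NFAT core TGGAAA, the TCF and LEF element CTTTGAT and the T-box site AGGTGTGA, none of which overlap in these windows. The GC box was found once each in the Chst3, Chst2 and St8sia6 windows and at 2 places in that of Hs3st3b1, and it is in 35.7% of all 32851 RefSeq windows and in 65.6% of the 64 windows of measured genes. The NFAT core was found at 3 places in the St3gal6 window and once in that of Hs3st3b1, and it is in 21.4% of all windows and 21.9% of the 64. The Galnt10 window held none of the 6 motifs. No window held the TATA box, the AP-1 element, the TCF and LEF element or the T-box site. In that order they are in 13.6%, 7.81%, 3.73% and 1.28% of all windows. In the 64 windows of measured genes the shares are 1.56%, 3.12%, 1.56% and 0%. The St3gal6 window had a GC content of 38.7%, and the others had 63.7% to 73%. The median was 52.7% over all windows and 63% over the 64 windows of measured genes (quartiles 53.8% and 70%). The Chst2 start used by RefSeq lies 548 bases from the start in the deposited table and that of St8sia6 288 bases, whereas the other 4 lie within 10 bases. Windows were present for 47 of the 59 measured genes.

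Sialylation caps chains and is done by families named for the linkage they make. St6gal1, which caps galactose of N-glycans and makes the ligand of CD22, was the leading sialyltransferase gene in both libraries. It had 3816 reads in exhausted and 3127 in effector cells, levels per length of 99.7 and 88.3 RPKM, scaled reads per gene length and library size, and 51.1% and 47.2% of the reads of its step (exact 95% intervals 49.9 to 52.2% and 46.0 to 48.4%). Its ratio was 1.13-fold (1.08 to 1.18), well short of 2-fold.

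St3gal2, which caps core 1 O-glycans and gangliosides (chr8:110919922-110972480), was the 1 sialyltransferase gene called higher. It had 1089 reads in the exhausted and 384 in the effector library, 2.62-fold more (2.33 to 2.95). St3gal1, the other core 1 enzyme of the family, had 350 exhausted and 415 effector reads and was not called (1.28-fold lower, 1.11 to 1.48). The make-up of the St3gal family differed between the libraries. St3gal2 took 61.3% of the family's reads in exhausted cells (59.0 to 63.6%) and 31.6% in effector cells (29.0 to 34.3%), whereas St3gal1 took 19.7% in exhausted and 34.2% in effector cells. Per length, St3gal2 led the family in exhausted cells with 52.3% of its summed level, and St3gal4 led in effector cells with 32.1%, where St3gal2 had 25.7% and St3gal1 24.5%. In sum the 6 St3gal genes had a ratio of 1.35 (1.26 to 1.46), with 1777 exhausted and 1214 effector reads.

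St3gal6, which acts on galactose of GlcNAc-bearing chains and can serve selectin ligands (chr16:58468125-58524243), showed the opposite. It had 13 reads in the exhausted and 113 in the effector library and was 9.40-fold lower (5.28 to 18.2). Its exons share 1603 bases, 26.0% of their length, with Dcbld2 on the other strand, where 9 exhausted and 4 effector reads were counted. The promoter window shown for St3gal6 is 1 of its 2 RefSeq windows. That window held 3 matches to the NFAT core and had the lowest GC content of the 6 shown. St3gal4, which acts on similar chains, had 243 and 221 reads and a ratio of 1.02-fold (0.844 to 1.23). St3gal3 (26 exhausted and 43 effector reads) and the GM3 synthase gene St3gal5 (56 and 38) were sparse and not called.

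Among the St8sia genes, which add sialic acid to sialic acid, St8sia6 and St8sia1 were lower and St8sia4 was not called. St8sia6, which acts on O-glycans (chr2:13651020-13793808), had 172 reads in the exhausted and 577 in the effector library, 3.63-fold lower (3.06 to 4.33). St8sia1, the GD3 synthase gene (chr6:142821545-142964452), had 204 and 431 reads and was 2.29-fold lower (1.93 to 2.71). St8sia4, a polysialyltransferase gene, had 1175 and 844 reads (1.29-fold, 1.18 to 1.41). St8sia4 thus held 75.8% of the family's reads in exhausted cells (73.5 to 77.9%) and 45.6% in effector cells (43.3 to 47.9%). St8sia2, St8sia3 and St8sia5 had 0 reads in both. Of the 6 St6galnac genes, St6galnac4, which adds a further sialic acid to sialylated core 1, was the only one measured, at 294 exhausted and 392 effector reads (1.44-fold lower, 1.24 to 1.68).

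O-glycans are started by the Galnt family, and the mix of its members differed between the libraries. Galnt10 (chr11:57645442-57787514) had 413 reads in the exhausted and 2550 in the effector library and was 6.68-fold lower (6.02 to 7.43). Galnt9 (chr5:110544345-110621382) had 329 and 79 reads and was 3.85-fold higher (3.003 to 4.99). Galnt1 differed little, at 2180 exhausted and 1940 effector reads (1.04-fold, 0.977 to 1.105).

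The remaining Galnt genes lay within 2-fold. Galnt6 had 1818 exhausted and 2917 effector reads (1.74-fold lower, 1.64 to 1.84) and Galnt7, which prefers peptides that already carry GalNAc, had 1231 and 744 (1.53-fold higher, 1.395 to 1.68). In effector cells Galnt6, Galnt10 and Galnt1 led the family with 31.6%, 27.7% and 21.04% of its reads. In exhausted cells Galnt1 (31.3%), Galnt6 (26.1%) and Galnt7 (17.7%) led, and Galnt10 took 5.94% (5.39 to 6.52%). Galnt11, Galnt12 and Galnt4 were measured and not called, and Galnt4 shares exon sequence with Poc1b on its own strand. Of the other 11 Galnt and Galntl rows, 7 were at 0 in both libraries, and Galnt3 had the most reads, at 17 in exhausted and 9 in effector cells.

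Branching genes had few reads. Gcnt1, the core 2 enzyme gene that makes branched O-glycans for selectin ligands, had 81 exhausted and 94 effector reads (1.26-fold lower, 0.923 to 1.71). Gcnt7 had 88 and 31 reads and was 2.62-fold higher (1.72 to 4.09), and 61 of its exon bases overlap Rtf2 on the other strand, a gene with 1531 exhausted and 1405 effector reads. Core 1 synthesis precedes both capping and core 2 branching, and neither of its listed genes was called. C1galt1, the core 1 galactosyltransferase gene, had 480 exhausted and 452 effector reads (1.02-fold lower, 0.894 to 1.16). Its chaperone gene C1galt1c1 had 213 and 147 (1.34-fold higher, 1.08 to 1.66).

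**Figure D3:**
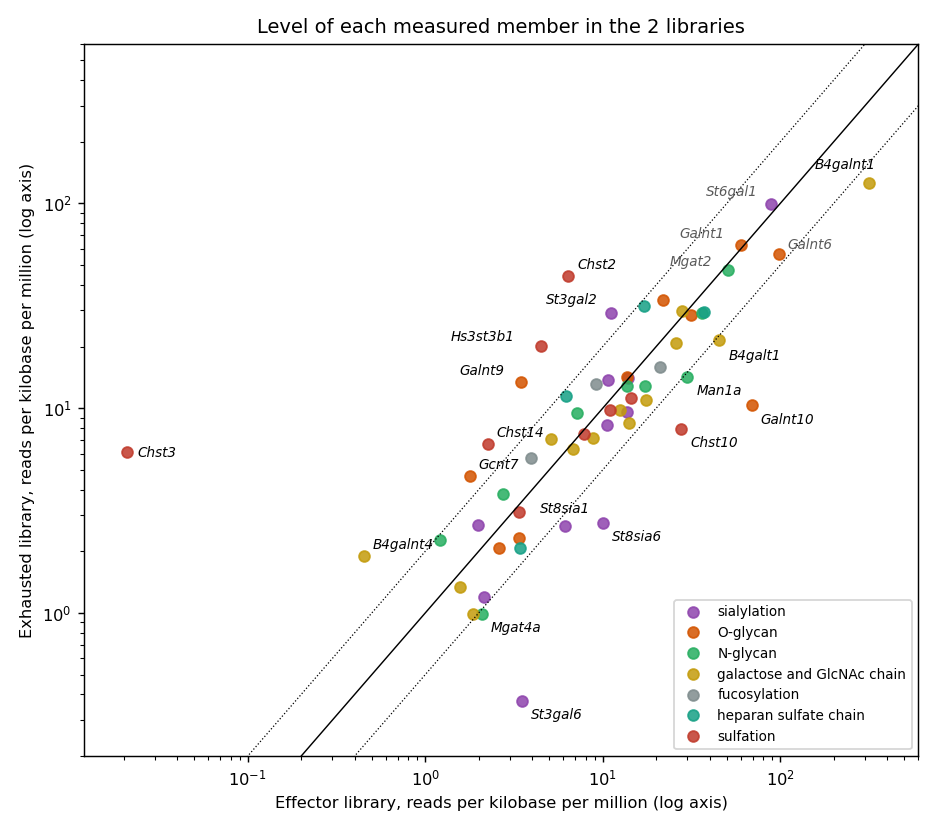
Level of each measured gene in the exhausted library (vertical) against the effector library (horizontal), in RPKM on log axes, coloured by step. The solid line marks equality and dotted lines 2-fold. B4galnt1, St6gal1, Galnt1 and Galnt6 are at the top, and Chst3, with 317 exhausted reads and 1 effector read, lies far from the line.

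Of the 9 measured N-glycan genes that the symbol rule picked, 2 were called, both lower in the exhausted library. Man1a, a Golgi mannosidase gene that trims high-mannose chains (chr10:53904788-54075796), had 618 reads in the exhausted and 1210 in the effector library, 2.12-fold lower (1.92 to 2.34). Its relative Man1a2 had 866 and 858 reads (1.07-fold lower, 0.974 to 1.18). Mgat4a, which adds a side branch (chr1:37439340-37541016), had 61 and 119 reads and was 2.11-fold lower (1.54 to 2.92). The intervals of both called genes reach below 2-fold.

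The other 7 measured genes of the step were not called. Mgat1, which starts hybrid and complex chains, had 777 exhausted and 891 effector reads (1.24-fold lower, 1.13 to 1.37). Mgat2, which starts the complex type, had 1055 and 1038 reads (1.06-fold lower, 0.976 to 1.16) and the highest level per length of its step, 47.5 RPKM in exhausted and 50.6 RPKM in effector cells. Mgat5, whose branch favours galectin binding and raises the threshold of T cell activation, had 274 and 181 reads (1.40-fold higher, 1.16 to 1.70). Mgat4b, the counterpart of Mgat4a, had 47 and 23 reads and a ratio of 1.89-fold (1.12 to 3.26). Man2a1 had 565 and 395 reads (1.32-fold higher) and Man2a2 had 713 and 892 (1.35-fold lower). Upstream of these, Mogs and Ganab, glucosidase genes of the endoplasmic reticulum, had 1774 against 1146 and 2522 against 1697 reads, 1.43-fold and 1.37-fold higher. Of the 5 genes listed with early trimming, Man1c1 was called higher (221 against 94 reads, 2.17-fold, 1.70 to 2.80) and 4 were neither. By symbol Man1c1 is a relative of Man1a that the rule left out. Man1 genes were thus called in both directions.

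Chain extension was led by B4galnt1, the GM2 and GD2 synthase gene (chr10:127165156-127172340), which had the highest level per length of all 122 genes in both libraries. It had 2644 reads in the exhausted and 6154 in the effector library, 126 and 317 RPKM, and was 2.52-fold lower (2.41 to 2.64). Its exons share 715 bases, 20.7% of their length, with Slc26a10 on the other strand, where 28 exhausted and 83 effector reads were counted. B4galt1, a main galactosyltransferase gene for N-glycan and other chains (chr4:40804602-40854005), had 728 and 1416 reads and was 2.10-fold lower (1.92 to 2.30). B4galnt4, which adds GalNAc to GlcNAc, had 50 and 11 reads and was 4.20-fold higher (2.16 to 8.95).

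Other galactosyltransferase genes were neither. B4galt5, a lactosylceramide synthase gene, had 304 exhausted and 465 effector reads (1.65-fold lower, 1.43 to 1.92). The linkage-region genes of glycosaminoglycans, B4galt7 (389 and 444 reads) and B3galt6 (191 and 128), lay within 1.5-fold of equality in opposite directions. All 4 measured genes with B3gnt symbols had ratios below equality, and none was called. They ran from B3gntl1 (153 against 152 reads, log2 ratio -0.10) to B3gnt5 (41 against 71, -0.91). The intervals of B3gntl1 (0.739 to 1.17) and B3gnt3 (0.469 to 1.55) include equality. The gene listed as B3gnt1 is placed here by that symbol alone and is named B4gat1 in GENCODE M21. There, 85.3% of its exon bases also belong to another protein-coding gene on the same strand.

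Read along the ganglioside route, St8sia1 and B4galnt1 were called lower and St3gal2 higher, and the other genes given here were not called. Ugcg, which makes glucosylceramide, the root of the route, had 4717 exhausted and 3334 effector reads (1.31-fold higher, 1.25 to 1.37, not called). B4galt5 was 1.65-fold lower, St3gal5 was at 1.36-fold with an interval that includes equality (0.887 to 2.11), and St8sia1 and B4galnt1 were 2.29-fold and 2.52-fold lower. B3galt4, the GM1 synthase gene that acts after B4galnt1, had 397 and 345 reads (1.06-fold, 0.919 to 1.23), and St3gal2, which caps its products, was 2.62-fold higher.

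Fucosylation genes were all within 2-fold. Fut8, which adds the core fucose of N-glycans, had 452 exhausted and 555 effector reads (1.33-fold lower, 1.17 to 1.51). Fut7, which completes the sialyl Lewis x group of selectin ligands, had 101 and 64 reads (1.46-fold higher, 1.06 to 2.03), and Fut11 had 371 and 240 (1.43-fold higher, 1.21 to 1.69). Fut4 had 0 exhausted and 3 effector reads, Fut10 had 0 and 5, and Fut1, Fut2 and Fut9 had 0 in both. Among carriers of selectin ligands, Selplg, which encodes PSGL-1, was lower (2620 against 6729 reads, 2.78-fold, 2.66 to 2.91), and the sialomucin gene Spn, which encodes CD43, was higher (3517 against 1509, 2.15-fold, 2.03 to 2.29).

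**Figure D4:**
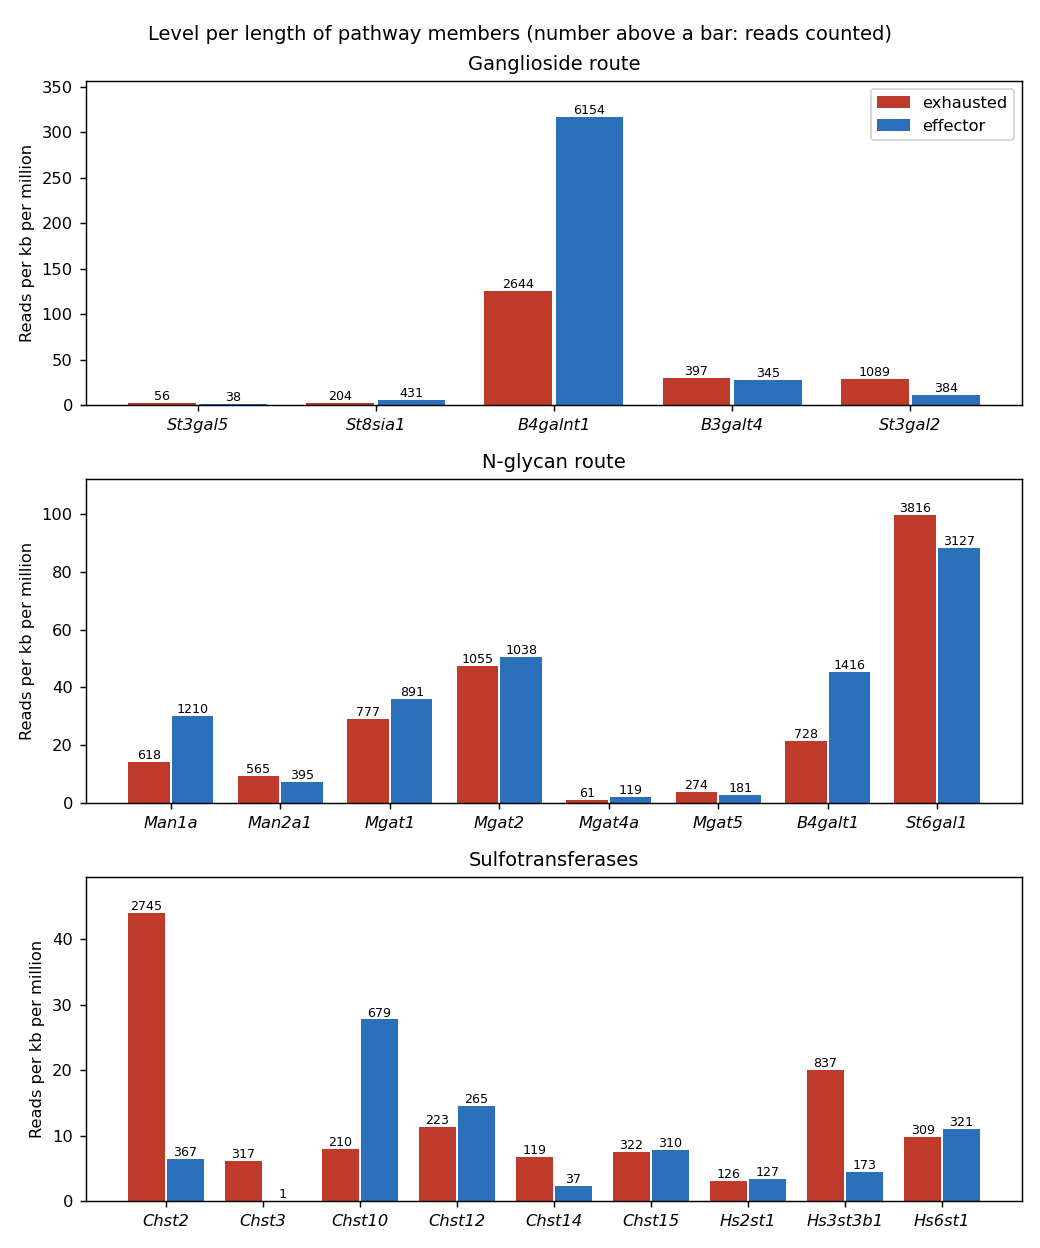
Level per length, in RPKM, of genes of the ganglioside route, the N-glycan route and all 9 measured sulfotransferase genes, with exhausted bars left of effector bars and the reads counted printed above each bar. There is 1 library per bar and no error bar. B4galnt1 dominates the first panel in both libraries, and Chst2 and Hs3st3b1 are tall in exhausted cells where Chst10 is tall in effector cells.

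Heparan sulfate chains are started by Extl3 and polymerised by Ext1 with Ext2. Extl3 had 1597 exhausted and 804 effector reads (1.84-fold higher, 1.686 to 2.001) and Ext1 had 743 and 376 (1.83-fold, 1.61 to 2.07), both just short of 2-fold. Ext2 had 934 and 1087 reads (1.26-fold lower, 1.15 to 1.38) and Extl2 had 53 and 81 (1.65-fold lower, 1.16 to 2.38).

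The 3 highest ratios among the 59 measured genes were all of sulfotransferase genes. Chst3, which sulfates chondroitin (chr10:60181532-60219260), had 317 reads in the exhausted library and 1 in the effector library, a ratio of 293-fold with a wide counting interval (52.2 to 11611). Chst2, which sulfates GlcNAc in chains such as selectin ligands (chr9:95399292-95406722), had 2745 and 367 reads and was 6.91-fold higher (6.20 to 7.73). Its level was 44.1 RPKM in exhausted and 6.38 RPKM in effector cells. The promoter windows of Chst3 and Chst2 each held 1 GC box, upstream of the RefSeq start. Chst14, the dermatan sulfotransferase gene (chr2:118926496-118928585), had 119 and 37 reads and was 2.97-fold higher (2.04 to 4.42).

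Chst10, which makes the HNK-1 epitope on glucuronic acid (chr1:38863877-38898160), was the 1 sulfotransferase gene called lower. It had 210 reads in the exhausted and 679 in the effector library, 3.50-fold lower (2.99 to 4.10). The leading sulfotransferase gene per length was thus Chst2 in exhausted cells, with 37.6% of the summed level of the step, and Chst10 in effector cells, with 35.8%. Chst2 accounted for 8.22% in effector cells and Chst10 for 6.77% in exhausted cells. The chondroitin genes Chst12 (223 exhausted and 265 effector reads) and Chst15 (322 and 310) were not called.

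Of the heparan sulfate sulfotransferase genes, Hs3st3b1 (chr11:63885792-63922290), which adds the rare 3-O sulfate, was higher. It had 837 reads in the exhausted and 173 in the effector library (4.47-fold, 3.79 to 5.30). Hs3st3a1, whose catalytic part is near-identical and could share its reads, had 0 in both, and the other 5 Hs3st genes also had 0. The genes of the more common modifications were within 2-fold, Hs2st1 at 126 and 127 reads (1.09-fold lower, 0.845 to 1.41) and Hs6st1 at 309 and 321 (1.12-fold lower, 0.958 to 1.32).

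Genes that supply these enzymes or share their substrates were described by 10 lists with 88 genes, of which 66 were measured. The rule called 5 higher and 10 lower and left 51 as neither, and their median log2 ratio was 0.0060. Calls made up 22.7% of the 66, against 13.7% over all measured genes. At that share, few or no calls in a short list are not a result about the list. None of 6 measured genes for sulfate donor supply was called, with a median of 0.014, among them Slc35b3 (881 exhausted and 909 effector reads) and the sulfate transporter gene Slc26a2 (621 and 438). None of 18 nucleotide sugar genes was higher, and 1 was lower, Uap1, which makes UDP-GlcNAc (114 against 401 reads, 3.80-fold, 3.08 to 4.73). The GDP-fucose transporter gene Slc35c1 was the list's most read member, at 1667 and 1175 reads.

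Among 9 measured sialic acid genes, 1 was higher and 1 lower. Siae, which removes acetyl groups from sialic acid, had 564 exhausted and 212 effector reads (2.46-fold higher, 2.10 to 2.89). Cmah, which converts the sialic acid Neu5Ac to Neu5Gc in mice, had 204 and 1198 reads and was 6.35-fold lower (5.47 to 7.41). The sialidase gene Neu1 (824 and 668 reads) and the sialic acid acetyltransferase gene Casd1 (712 and 707) lay near equality.

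Of 13 measured partners of glycosaminoglycan chains, 2 were higher, 3 lower and 8 neither. Chpf, a chondroitin polymerising factor gene, had 1115 exhausted and 302 effector reads (3.41-fold higher, 3.003 to 3.89), and Xylt1, which starts the chains, had 160 and 57 (2.595-fold, 1.91 to 3.58). Csgalnact2, which starts chondroitin, had 106 and 397 reads (4.05-fold lower, 3.26 to 5.07). Dse, the dermatan epimerase gene, had 25 and 113 reads (4.89-fold lower, 3.15 to 7.87), and Ust, a uronyl sulfotransferase gene, had 19 and 82 (4.67-fold lower, 2.81 to 8.15). Genes around chondroitin and dermatan sulfate, Chst3 and Chst14 included, were therefore called in both directions.

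Of 4 measured proteoglycan genes, 2 were lower, Sdc3 (9 exhausted against 73 effector reads, 8.77-fold, 4.38 to 19.95) and Cd44 (595 against 1628, 2.96-fold). Srgn, which encodes serglycin, the granule proteoglycan, was the most read, at 4079 and 2635 reads (1.43-fold higher, not called). Of 5 measured galectin genes, which encode lectins for galactose-bearing chains, Lgals1 (811 against 2319 reads, 3.09-fold, 2.85 to 3.35) and Lgals3 (16 against 71, 4.80-fold, 2.76 to 8.85) were lower. Lgals9 had 1825 exhausted and 3139 effector reads and was not called.

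Members with 1 to 49 reads in all were spread over the families and carry little information at this depth. Those with at least 10 reads in either library were B4galt4 (15 exhausted and 4 effector reads), B3gnt2 (13 and 9), B3gnt9 (4 and 10), Galnt3, St6galnac2 (8 and 18), St6galnac3 (14 and 9) and St6galnac6 (15 and 17). No member had 10 or more reads in 1 library and 0 in the other.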

How the data were processed

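RNA of sorted spleen TEa cells was sequenced in 2 libraries, 1 per group, from low-input total RNA libraries, per the labels' protocols. The authors deposited raw counts of reads for each gene, and per the file headers each gene's symbol, mm10 coordinates, length and type. The submitters' processing notes name STAR 2.6. The sources used here give no counting program, strand setting or annotation release, so reads of overlapping genes on opposite strands cannot be told apart. No molecular identifiers are described in the labels, and duplicates from amplification would make the intervals too narrow.

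Columns were mapped by sample title. Effective library sizes came from edgeR 4.0.16 (TMM over genes with at least 50 reads) in R 4.3.3. Ratios of exhausted to effector used exact Clopper-Pearson 95% intervals of the reads in the exhausted library (scipy 1.17.1). A library with 0 reads was set to a floor of 3. With 1 library per group no p-value was computed. Levels per length divide scaled counts by the deposited gene length. The call rule was tested on simulated counts with counting error alone. That test cannot speak to spread between animals or to duplicates from amplification.

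Steps were assigned by symbol prefix. Genes named were every member past the rule, the 3 measured members of each step with the highest level per length, and from companion lists those past the rule and the 2 most read. Others were named after their values were seen. Not every gene named by this rule is reported here. Members and lists were chosen with earlier results of these data known. Exon overlap came from GENCODE M21, and promoters are credited to RefSeq (GRCm38.p6). Of the 59 measured genes, 56 had both ends within 5000 bases of GENCODE M21. Alternatives changed the scaling, including DESeq2 1.42.0 size factors, the read minimum, the depth, the size rule and the floor.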

Additional observations from a re-analysis of the deposited data

How the results depend on the processing

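Of the 31 named members, 31 kept their direction and their side of the 2-fold rule under each of 4 other scalings, a read minimum of 1, thinning of the deeper library and a prior count of 2. With the interval wholly beyond 2-fold, 7 members were higher and 5 lower, 20.3% of measured members against 8.61% of all measured genes. Man1a, Mgat4a, B4galt1, St8sia1 and Gcnt7 were then no longer called. At 4-fold, 4 were higher and 2 lower, 10.2% of measured members against 4.58% of all measured genes. The log2 ratio of summed sulfation reads, 1.08, was no longer past that rule. With at least 500 reads, 35 members were measured, 3 higher and 7 lower, because fewer genes enter. That was 28.6% of these members against 8.27% of all genes with at least 500 reads. The log2 ratio of Chst3, 8.20, ranged from 6.66 to 8.22 and was lowest with the prior count. With a read minimum of 1 the median log2 ratio changed sign for heparan sulfate chain genes (-0.33) and for sulfation (0.62). No ratio of a named member changed sign. The log2 ratio of summed fucosylation reads was -0.021 in the main setting and 0.0029 with DESeq2 size factors. No paired analysis was possible because each group has 1 library. Without replicates, the spread between animals is unknown, and genes with few reads, such as B4galnt4, have wide counting intervals.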
